A study of Mus musculus with 9 samples.

Results

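The genes described here encode the enzymes and readers of histone methylation and the Polycomb proteins, measured by RNA sequencing in mouse embryonic stem cells that have or lack the histone deacetylase gene Sirt6. Members were chosen by gene symbol: the lysine methyltransferases of the MLL, SETD, SUV, EHMT and NSD families, Dot1l, the KDM demethylases, the subunits of Polycomb repressive complexes 1 and 2 (PRC1 and PRC2), the chromobox (CBX) proteins, the PRDM family except Prdm14, and Trim28. This gave 74 of the 23366 named genes in the count table, of which 70 passed the filter on low counts and were tested among 14988 genes. The 4 members that did not pass were Prdm6, Prdm8, Prdm12 and Prdm13, with at most 12 counts in any library.

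The series lists 9 samples in 3 groups of 3, all from the 129 SvJae F1 strain at passage 21 and grown in serum with leukaemia inhibitory factor. The compared groups are 3 wild-type libraries and 3 Sirt6 knockout libraries, and the wild-type cells deprived of glucose were not analysed here. The labels do not say how the knockout was made, whether it is 1 clone, or whether replicates were separate cultures, so a p here speaks to the spread among these libraries alone, which may be technical. Sirt6 fell from 13.5 ± 0.690 to 0.308 ± 0.0664 CPM (SD, n = 3), where CPM are counts per 1000000 of a library size scaled by the trimmed mean of M values (TMM).

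Total counts ran from 20107037 to 29267115. All 10 embryonic stem cell markers, Pou5f1 and Nanog among them, had a mean of 67.5 CPM or more in both groups, 3 of them higher and 5 lower in the knockout. Of 15 fibroblast markers, which would mark feeder cells, 10 were tested, 8 rose and 2 fell, with a median log2 fold change of 2.52. Among the 8, Tagln rose from 2.21 ± 0.653 to 21.7 ± 3.89 CPM, Acta2 from 0.0909 ± 0.0184 to 2.46 ± 0.609 CPM and Col6a2 from 0.239 ± 0.0930 to 3.27 ± 0.248 CPM (SD, n = 3). A marker near 0 in wild-type, as Acta2 and Col6a2 were, passes the filter on low counts only through the knockout. The counts and the median of this list therefore support no direction. The summed level of the list was 724 to 810 CPM in wild-type and 449 to 529 CPM in knockout libraries, most of it Fn1 and Vim, while the fibroblast genes Col3a1, Postn, Dcn and Lum were at or near 0 in both groups. Sex chromosome markers also moved with the groups. Xist fell from 38.2 ± 6.23 to 4.06 ± 0.662 CPM, and the Y-linked gene Ddx3y rose from 7.74 ± 0.791 to 91.5 ± 9.55 CPM (SD, n = 3). The Y-linked demethylase gene Kdm5d, outside the members, was at 0 CPM in every wild-type library and at 2.41 ± 0.714 CPM in the knockout. Of the 5 markers 4 rose and 1 fell. The part of these differences in the results below was not tested.

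Methyl groups on histone H3 lysines 4, 36 and 79 mark active genes, whereas methylated lysine 9 (H3K9) and lysine 27 (H3K27) mark silenced chromatin. PRC2 writes H3K27 methylation through EZH1 or EZH2, and PRC1 binds that mark through its CBX subunits and ubiquitinates histone H2A through RING1 or RNF2. In embryonic stem cells the Polycomb complexes hold many developmental genes at low levels. KMT2B (the row Wbp7 below, not the row Mll2) and the SETD1 enzymes methylate lysine 4 at active and poised promoters. KDM enzymes remove the marks on lysines 4, 9, 27 and 36.

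Most of these genes were lower in the knockout. Of the 70 tested members, 40 fell and 5 rose at an adjusted p under 0.05 (edgeR's quasi-likelihood test, Benjamini-Hochberg over all 14988 genes), which is 57.1% and 7.14% of them. Among all tested genes 27.8% fell and 27.9% rose, 55.7% in all. The median log2 fold change (knockout over wild-type) was -0.39 over the members and 0.01 over all genes tested. The libraries of the groups did not overlap for 51 of the 70 members, against 63.2% of all genes. A call with a change of at least 1 on the log2 scale was reached by 16 members, and by 21.6% of all genes. In the authors' deposited table, where 22.0% of genes with an adjusted p were lower and 23.8% higher at 0.05, the same 45 members passed with the same signs, 40 lower and 5 higher.

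**Figure D1:**
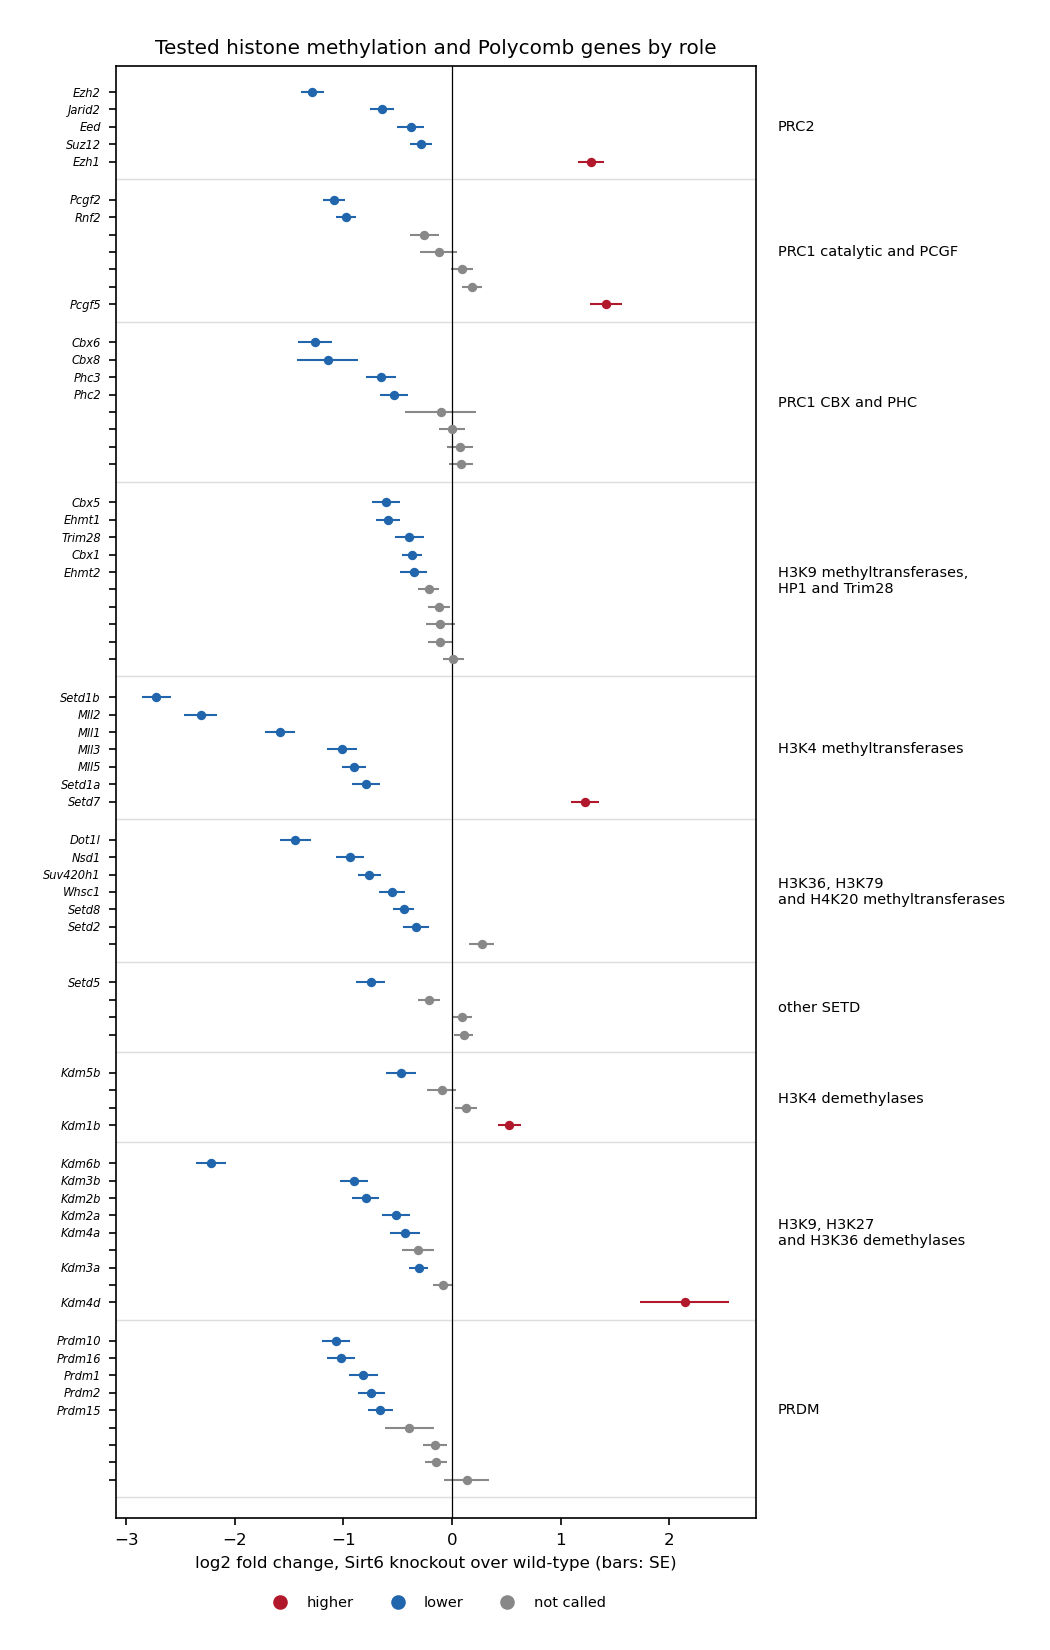
Log2 fold change of each tested member (knockout over wild-type, x axis) with its standard error, ordered within 10 role groups. Blue points are the 40 called lower, red points the 5 called higher and grey points the 25 not called, which carry no gene name; the points left of 0 outnumber those right of it in every group except the H3K4 demethylases and the other SETD genes, which are split evenly.

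Members differed from the typical gene in level and length, which were measured beside the result. The median wild-type level was 68.2 CPM for tested members and 17.8 CPM for all tested genes. The log2 fold change had a Pearson correlation with log2 wild-type level of -0.382 over 14835 genes and -0.287 over the 70 members. Wild-type level enters both of these quantities. The part of level in the members' falls was not tested. The longest annotated transcript had a median of 4758 bases among tested members and 3027 bases among all genes. The 3 knockout libraries also differed among themselves: the members' median change against the wild-type mean was -0.30, -0.46 and -0.55 (log2) in knockout replicates 1 to 3. Log2 CPM, taken relative to each gene's mean over the 6 libraries, was fitted on transcript length and GC percent together. The length slope was 0.0903, -0.0422 and -0.151 per doubling of length in knockout replicates 1 to 3, and 0.00282 to 0.0665 in the wild-type libraries. The GC slope was 0.00856, -0.0155 and -0.00959 per percent in knockout replicates 1 to 3, and 0.00357 to 0.00738 in the wild-type libraries. With each library's trend on length and GC content removed, 50 members fell and 7 rose, with a median of -0.41, the median of all genes then being -0.08. Total counts in place of TMM raised the median of all genes to 0.13, and then 31 members fell and 7 rose, with a median of -0.27. Over all genes that scaling gave 5113 higher and 3102 lower, against 4182 and 4163 with TMM. Total counts include the row Rn45s, which went from 89937.7 ± 9557.53 to 37995.9 ± 6921.9 CPM (SD, n = 3). The part of this row in the difference between the scalings, and in the calls that ended with total counts, was not tested.

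The PRC2 genes moved in opposite directions. Ezh2, which encodes the methyltransferase subunit that predominates in dividing cells, had 115, 117 and 104 CPM in the wild-type libraries and 41.2, 51.0 and 45.6 CPM in the knockout libraries. It fell 2.44-fold (log2 fold change -1.29 ± 0.11 SE, adjusted p = 3.56e-06, edgeR). Ezh1, its paralogue with weaker methyltransferase activity, had 21.1, 20.9 and 20.3 CPM in wild-type and 59.1, 48.6 and 43.3 CPM in the knockout. It rose 2.43-fold (1.28 ± 0.12, adjusted p = 9.04e-06, edgeR). Neither gene's groups overlapped, and every knockout library had less Ezh2 and more Ezh1 than any wild-type library.

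Per kilobase of transcript, Ezh1 made up 10.9%, 10.5% and 11.4% of the summed Ezh1 and Ezh2 level in wild-type libraries and 48.7%, 38.7% and 38.6% in knockout libraries. The log2 ratio of Ezh1 to Ezh2 counts went from -2.43 ± 0.0669 to 0.126 ± 0.342 (SD, n = 3), a 5.87-fold shift. Its exact two-sided permutation p was 0.10, the smallest that 3 against 3 allows. The ratio is taken within a library and does not depend on the scaling.

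The promoters of these paralogues are shown because they stand for members that changed in opposite directions. The letters are the 250 bases before each RefSeq start on the minus strand (GRCm38.p6, not the authors' build), 5′ to 3′ along the gene, at chr11:101226464-101226713 for Ezh1 and chr6:47595031-47595280 for Ezh2. Capitals mark CCAAT boxes (CCAAT, read on both strands), a motif found in many cell-cycle promoters.
Ezh1: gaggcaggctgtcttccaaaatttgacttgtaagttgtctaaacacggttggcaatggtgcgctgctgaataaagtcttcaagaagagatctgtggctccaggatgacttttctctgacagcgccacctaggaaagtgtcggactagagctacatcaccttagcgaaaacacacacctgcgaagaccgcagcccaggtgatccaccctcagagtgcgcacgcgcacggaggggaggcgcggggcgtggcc
Ezh2: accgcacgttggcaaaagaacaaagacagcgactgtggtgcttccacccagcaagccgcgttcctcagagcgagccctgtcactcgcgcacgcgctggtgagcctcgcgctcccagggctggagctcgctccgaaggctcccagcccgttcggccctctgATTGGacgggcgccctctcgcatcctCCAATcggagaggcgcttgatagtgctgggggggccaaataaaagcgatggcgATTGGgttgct
The Ezh2 window holds 3 CCAAT boxes and 23 CpG dinucleotides at 63.6% GC, and the Ezh1 window holds 0 CCAAT boxes and 14 CpG dinucleotides at 55.2% GC. A CCAAT box was present in 33.8% of all 32851 promoter windows and in 40.2% of the 82 windows of 59 members with an entry. Neither window holds an E2F motif (TTTCCCGC, TTTGGCGC, TTTCGCGC or TTTGCCGC) or a GC box (GGGCGG) on either strand. A match is a string of letters and says nothing of binding.

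The other PRC2 subunits fell by less. Jarid2, a cofactor that helps to recruit PRC2, had 577, 560 and 524 CPM in wild-type and 396, 347 and 318 CPM in knockout libraries (-0.65 ± 0.11, adjusted p = 0.000570, edgeR). The core scaffold gene Suz12 had 197, 186 and 186 CPM against 160, 166 and 140 CPM (-0.29 ± 0.10, adjusted p = 0.0293). Eed, whose protein reads the H3K27 mark, had 262, 262 and 281 CPM against 169, 219 and 230 CPM (-0.38 ± 0.12, adjusted p = 0.0216). All 3 were lower in every knockout library. With total counts the calls of Suz12 (-0.16, adjusted p = 0.265) and Eed (-0.26, adjusted p = 0.0766) ended, and so did both without any 1 of the 3 wild-type replicates (edgeR).

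**Figure D2:**
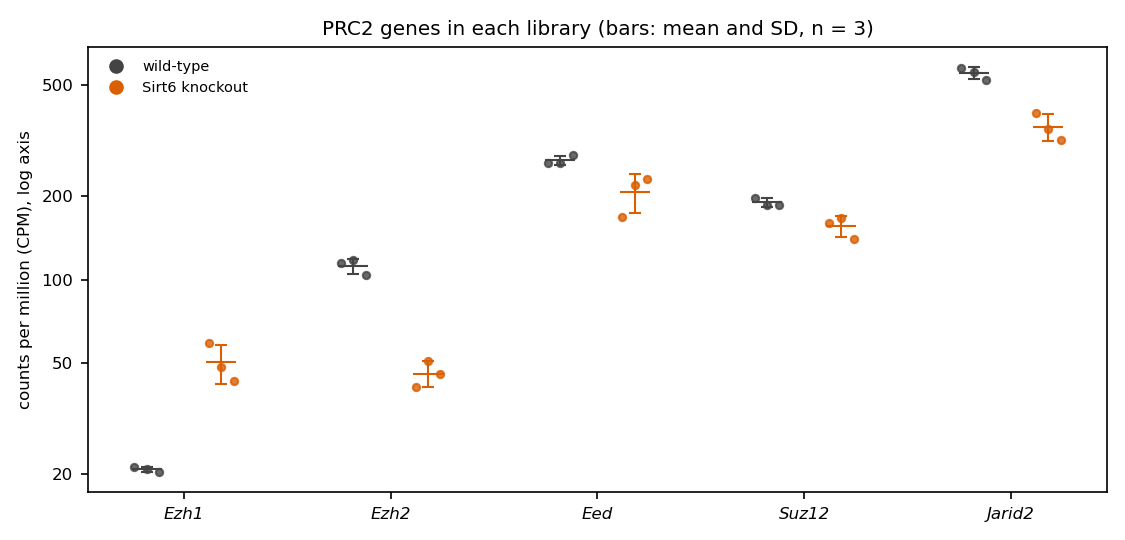
CPM of the 5 PRC2 genes (y axis, log scale) in each wild-type and Sirt6 knockout library, with the mean and SD of 3 libraries. The Ezh1 points rise and the Ezh2 points fall, to 43.3 to 59.1 and 41.2 to 51.0 CPM, and Eed, Suz12 and Jarid2 sit lower in all 3 knockout libraries.

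Of the 7 partner genes of PRC2 measured outside this set, 0 rose (against 27.9% of all genes) and 5 fell (71.4%, against 27.8%). Phf19, whose protein binds methylated lysine 36 and brings in PRC2, fell from 10.6 ± 0.921 to 3.94 ± 0.470 CPM, and E130012A19Rik, the older symbol of Epop, fell from 259 ± 7.29 to 168 ± 25.8 CPM (SD, n = 3). The histone-binding subunit gene Rbbp4 changed by -0.31 and Rbbp7, on the X chromosome, by -0.34, both called, while Mtf2 (-0.04) and Phf1 (-0.12) were not called.

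Among the catalytic and PCGF subunits of PRC1, 2 of 7 genes fell and 1 rose. These are 28.6% and 14.3%, against 27.8% and 27.9% of all genes, so the share of falls was near that of all genes. Rnf2, the main ubiquitin ligase subunit in embryonic stem cells, had 229, 229 and 241 CPM in wild-type and 110, 124 and 122 CPM in knockout libraries (-0.98 ± 0.09, adjusted p = 9.83e-06, edgeR). Its paralogue Ring1 was low, at 7.18 ± 0.370 CPM, and was not called (-0.26 ± 0.13, adjusted p = 0.124). The Ring1 share of the pair, per kilobase, went from 4.63% ± 0.352 to 7.40% ± 1.25 (SD, n = 3).

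The PCGF proteins decide which variant of PRC1 is formed. Pcgf2, of the canonical complex with CBX proteins, fell from 32.8, 32.9 and 30.3 CPM to 15.8, 15.1 and 14.2 CPM (-1.09 ± 0.10, adjusted p = 6.54e-06, edgeR). Pcgf5, of a variant complex, rose from 5.37, 4.69 and 5.25 CPM to 11.2, 15.3 and 14.7 CPM (1.42 ± 0.15, adjusted p = 1.70e-05). The groups did not overlap for either gene. Pcgf6, which belongs to the variant complex that silences germline genes, was at 53.0 ± 0.460 and 60.2 ± 4.07 CPM and was not called (0.18 ± 0.09). It passed as higher with total counts (0.31, adjusted p = 0.0237, edgeR) and without knockout replicate 1 (0.25, adjusted p = 0.0109), and was at -0.01 after removal of the length and GC trend.

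Within the PCGF family, per kilobase, Pcgf6 had the largest share in all 6 libraries, with 43.0% ± 0.632 for wild-type and 51.1% ± 0.797 for knockout. The Pcgf2 share was 22.6% ± 1.04 and 11.1% ± 1.35, and the Pcgf5 share 1.39% ± 0.113 and 3.89% ± 0.399 (SD, n = 3). Pcgf1 and Pcgf3 were not called (-0.12 and 0.09). Bmi1, which is PCGF4 under its own name and was counted among the PRC1 partners, was low and fell from 10.0 ± 1.32 to 5.83 ± 0.412 CPM.

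The chromobox and PHC genes of canonical PRC1 showed 4 falls (50%, against 27.8% of all genes) and 0 rises (against 27.9%) among 8. Cbx6 had 71.4, 71.8 and 71.3 CPM in wild-type and 37.9, 28.6 and 22.7 CPM in the knockout (-1.26 ± 0.16, adjusted p = 5.76e-05, edgeR). Cbx7, the predominant chromobox gene of PRC1 in embryonic stem cells, had 153, 149 and 141 CPM against 174, 141 and 128 CPM, so that the groups overlapped (0.00107 ± 0.119, adjusted p = 0.995). Cbx2 was not called (0.09 ± 0.11), and Cbx8 fell at a low level, from 0.850 ± 0.0294 to 0.379 ± 0.0295 CPM.

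Per kilobase, Cbx7 held 67.9% ± 0.493 of the summed level of the chromobox genes of PRC1 in wild-type and 76.1% ± 0.209 in the knockout, and Cbx6 19.2% ± 0.614 and 8.84% ± 0.880 (SD, n = 3). Of the polyhomeotic genes, which encode subunits that let PRC1 polymerise, Phc2 fell from 24.2 ± 2.98 to 16.6 ± 1.98 CPM and Phc3 from 31.3 ± 2.90 to 19.8 ± 3.45 CPM. Phc1, at 340 ± 13.1 and 357 ± 51.9 CPM, was not called, and held 90.0% ± 0.416 of the PHC level per kilobase in wild-type.

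**Figure D3:**
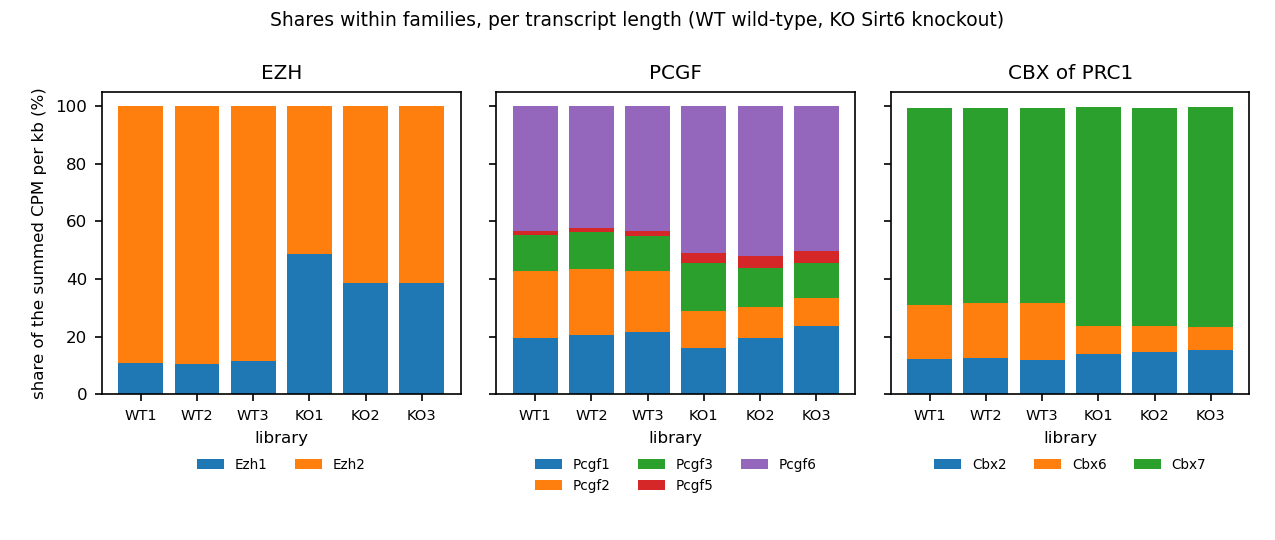
Stacked shares (%, y axis) of the summed CPM per kb of longest transcript in each wild-type (WT) and knockout (KO) library, for the EZH pair, the PCGF genes and the chromobox genes of PRC1, genes under 1% of the wild-type sum not being drawn. Ezh1 goes from 10.5 to 11.4% in wild-type to 38.6 to 48.7% in knockout libraries, while Pcgf2 and Cbx6 take smaller shares.

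Of 16 PRC1 partner genes, 3 rose (18.8%, against 27.9% of all genes) and 7 fell (43.8%, against 27.8%). Scml2, an X-linked Polycomb gene active in the germline, rose from 1.56 ± 0.383 to 6.88 ± 1.23 CPM, and Bcor, of the PCGF1 complex and also X-linked, fell from 28.7 ± 1.65 to 12.7 ± 2.07 CPM. Rybp, whose protein stimulates variant PRC1, fell by 0.99 on the log2 scale and its paralogue Yaf2 rose by 0.76.

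The 2 largest falls were among the lysine 4 methyltransferases. Of these 7 genes, 6 fell (85.7%, against 27.8% of all genes) and 1 rose (14.3%, against 27.9%). Setd1b, a catalytic subunit of the SET1 complex, had 27.3, 28.7 and 23.1 CPM in wild-type and 3.68, 4.22 and 4.11 CPM in the knockout. It fell 6.61-fold (-2.72 ± 0.13, adjusted p = 1.32e-07, edgeR). Its paralogue Setd1a fell by less, from 64.9 ± 4.96 to 37.5 ± 6.36 CPM (-0.79 ± 0.13, adjusted p = 0.000379). The difference between these paralogues was not tested.

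The symbol Mll2 is an older name of both Kmt2b and Kmt2d. The table also has a row Wbp7, a name of Kmt2b alone, so the Mll2 row is read as Kmt2d, which encodes the main enhancer lysine 4 methyltransferase together with Mll3 (Kmt2c). Mll2 fell 4.97-fold, from 165, 156 and 128 CPM to 36.4, 28.7 and 25 CPM (-2.31 ± 0.15, adjusted p = 6.96e-07, edgeR). Mll3 fell from 241, 225 and 210 CPM to 130, 117 and 87.1 CPM (-1.01 ± 0.14, adjusted p = 0.000125). For both genes every knockout library lay below every wild-type library.

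Mll1 (Kmt2a), which maintains Hox gene expression in development, fell from 141, 138 and 120 CPM to 50.8, 46.1 and 35.6 CPM (-1.58 ± 0.14, adjusted p = 4.15e-06, edgeR). Wbp7, outside the members by its symbol, had a log2 fold change of -1.62 ± 0.14. Mll5 (Kmt2e), a reader of lysine 4 methylation with little or no enzyme activity, fell from 33.7 ± 2.10 to 17.9 ± 1.93 CPM. Setd7, a monomethyltransferase with many non-histone substrates, rose from 8.68, 7.78 and 8.61 CPM to 21.9, 20.2 and 16.4 CPM (1.22 ± 0.13, adjusted p = 1.93e-05). It was the only gene of this group that was higher in the knockout.

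The transcripts of these enzymes are among the longest of the set, at 14967 bases for Mll3, 16470 for Mll1 and 19823 for Mll2. Their log2 fold changes were smaller with the length and GC trend removed, at -0.64, -1.15 and -1.75, and each kept its call. Setd1b was at -2.44 and Kdm6b at -2.02 in that fit.

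Of 12 measured partners of the MLL and SETD1 complexes, 0 rose (against 27.9% of all genes) and 8 fell (66.7%, against 27.8%). Men1, which encodes menin, fell from 46.7 ± 1.46 to 23.7 ± 4.82 CPM, and the coactivator gene Ncoa6 from 47.3 ± 4.38 to 24.6 ± 2.83 CPM (SD, n = 3). The shared core genes Wdr5 (-0.02), Ash2l (-0.07) and Dpy30 (-0.11) were not called, and the fourth, Rbbp5, fell by 0.41 on the log2 scale.

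Among the methyltransferases for H3K36, H3K79 and lysine 20 of histone H4, 6 of 7 genes fell and 0 rose. The falls were 85.7% of the group, where 27.8% of all genes fell and 27.9% rose. Dot1l, the H3K79 methyltransferase, had 89.7, 86.6 and 74.2 CPM in wild-type and 37.7, 28.7 and 25.5 CPM in the knockout (-1.44 ± 0.14, adjusted p = 1.28e-05, edgeR). Nsd1, which dimethylates H3K36, fell from 688, 639 and 603 CPM to 383, 344 and 280 CPM (-0.94 ± 0.13, adjusted p = 0.000116). Neither gene's groups overlapped.

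Suv420h1 (Kmt5b), which adds further methyl groups at lysine 20 of histone H4, fell from 57.1 ± 4.57 to 33.7 ± 2.74 CPM, while its paralogue Suv420h2 (Kmt5c) was at 46.0 ± 2.37 and 55.5 ± 8.49 CPM and was not called (0.27 ± 0.12, adjusted p = 0.0715, edgeR). Suv420h2 passed as higher with total counts (0.40, adjusted p = 0.0263), without knockout replicate 3 (0.31) and after removal of the length and GC trend (0.24). Whsc1 (Nsd2) and Setd8 (Kmt5a) fell by 0.55 and 0.45 on the log2 scale. Setd2, the enzyme of H3K36 trimethylation that travels with RNA polymerase II, had the highest adjusted p among the called members (-0.33 ± 0.12, adjusted p = 0.0366, edgeR). Its call ended with total counts (-0.20, adjusted p = 0.237), with a filter on mean CPM of at least 1 (-0.31, adjusted p = 0.0515) and without wild-type replicate 1, 2 or 3 or knockout replicate 2.

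**Figure D4:**
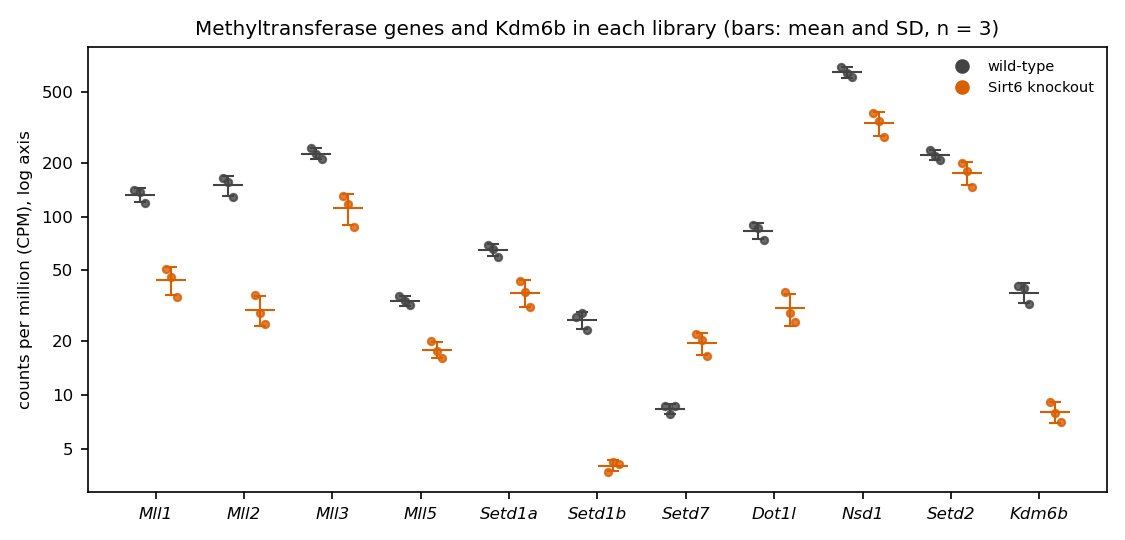
CPM (y axis, log scale) of lysine methyltransferase genes and the demethylase gene Kdm6b in each wild-type and Sirt6 knockout library, with the mean and SD of 3 libraries. Setd7 is the only gene plotted whose knockout libraries lie above the wild-type ones, and Setd1b shows the widest gap.

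Genes of H3K9 methylation showed smaller differences, with 5 of 10 lower (50%, against 27.8% of all genes) and 0 higher (against 27.9%). Cbx5, which encodes heterochromatin protein 1 (HP1) alpha, had 663, 636 and 611 CPM in wild-type and 468, 440 and 344 CPM in the knockout (-0.61 ± 0.13, adjusted p = 0.00190, edgeR). The HP1 beta gene Cbx1 fell from 128 ± 6.99 to 98.5 ± 3.86 CPM, and the HP1 gamma gene Cbx3, at 376 ± 23.3 and 349 ± 61.5 CPM, was not called. Trim28, the corepressor that brings SETDB1 to retroviral elements, had the highest level per kilobase of any member, with 2121, 2162 and 2123 CPM in wild-type and 1913, 1466 and 1489 CPM in the knockout. Its fall was small (-0.40 ± 0.13, adjusted p = 0.0264) and was not called with total counts (-0.27, adjusted p = 0.129) or without wild-type replicate 1, 2 or 3 or knockout replicate 2.

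Ehmt1, which encodes GLP, the partner of G9a in H3K9 dimethylation, fell from 108 ± 5.89 to 71.5 ± 8.78 CPM (-0.59 ± 0.11, adjusted p = 0.000874, edgeR). Ehmt2, which encodes G9a, had 200, 203 and 201 CPM against 192, 141 and 139 CPM, with knockout replicate 1 close to wild-type (-0.35 ± 0.13, adjusted p = 0.0353). The Ehmt2 call ended with total counts (-0.23, adjusted p = 0.207) and without wild-type replicate 1, 2 or 3 or knockout replicate 2. Setdb1, Setdb2, Suv39h1 and Suv39h2, the other H3K9 methyltransferase genes, were not called, with log2 fold changes of -0.11 ± 0.12, -0.12 ± 0.10, -0.22 ± 0.09 and 0.01 ± 0.10. Suv39h1 is the only member on the X chromosome, and it passed as lower without knockout replicate 1 or 3 and after removal of the length and GC trend (-0.31).

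Within the H3K9 pairs the shift was small. The log2 ratio of Ehmt1 to Ehmt2 counts went from -0.902 ± 0.0813 to -1.13 ± 0.120 (SD, n = 3, exact p = 0.10), and that of Setdb1 to Setdb2 was 2.55 ± 0.0450 and 2.55 ± 0.253 (exact p = 1). Of 11 measured partner genes 1 rose (9.09%, against 27.9% of all genes) and 6 fell (54.5%, against 27.8%). Among the 6 were Wiz, a G9a partner (21.5 ± 1.73 to 11.3 ± 2.69 CPM), and Zfp57, which keeps imprinted regions methylated (468 ± 15.1 to 285 ± 7.54 CPM).

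The demethylases were mixed. Of the H3K4 demethylases, Kdm1b rose from 30.9, 27.9 and 28.0 CPM to 46.0, 41.8 and 37.3 CPM (0.53 ± 0.11, adjusted p = 0.00156, edgeR). Kdm1a, which encodes LSD1 of the CoREST complex, was at 304 ± 4.28 and 332 ± 27.6 CPM and was not called. Kdm5b fell from 735 ± 25.7 to 531 ± 98.7 CPM (-0.47 ± 0.14, adjusted p = 0.0131), or by 0.28 once length and GC trends were removed, and Kdm5a was not called (-0.10 ± 0.13). The Kdm5b call ended with total counts (-0.34, adjusted p = 0.0785) and without wild-type replicate 1 or knockout replicate 2.

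Of 9 demethylase genes for H3K9, H3K27 and H3K36, 6 fell (66.7%, against 27.8% of all genes) and 1 rose (11.1%, against 27.9%). Kdm6b, the H3K27 demethylase, fell 4.66-fold from 40.7, 39.6 and 32.2 CPM to 9.13, 7.86 and 7.01 CPM (-2.22 ± 0.14, adjusted p = 4.75e-07, edgeR). Its X-linked relative Kdm6a, outside the members, fell by 0.53 on the log2 scale. The Y-linked relative Uty, also outside the members, rose from 7.31 ± 0.534 to 38.1 ± 3.63 CPM (SD, n = 3). Kdm4d, an H3K9 demethylase gene known for expression in testis, had 2, 8 and 5 counts in wild-type and 26, 21 and 20 counts in knockout libraries, so its rise (2.14 ± 0.41, adjusted p = 0.00106) rests on few reads.

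Kdm2b, which brings the PCGF1 complex to CpG islands, fell from 111 ± 5.61 to 63.7 ± 10.2 CPM, and Kdm3b from 151 ± 8.78 to 80.5 ± 14.5 CPM. Kdm2a fell by 0.52 on the log2 scale, or by 0.31 with the length and GC trend removed. Kdm3a, a hypoxia-inducible H3K9 demethylase gene, was lower in every knockout library (-0.31 ± 0.09, adjusted p = 0.0126), and its call ended with total counts (-0.18) and without wild-type replicate 1 or 2. Kdm4a was lower (-0.43 ± 0.14, adjusted p = 0.0203, edgeR), a call that ended with total counts (-0.30) and without wild-type replicate 1 or 2 or knockout replicate 2. Kdm4b (-0.31) and Kdm4c (-0.09) were not called. Jhdm1d, an older symbol of Kdm7a and so outside the members, rose by 0.61. It is 1 of 3 rises (17.6%, against 27.9% of all genes), with 12 falls (70.6%, against 27.8%), among 17 further measured lysine methylation genes. Of these Mllt3, a partner of Dot1l, rose most (3.22 ± 0.271 to 9.91 ± 0.614 CPM) and the methyltransferase gene Smyd2 fell (68.2 ± 2.53 to 27.1 ± 2.36 CPM).

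The PRDM family, zinc finger proteins with a SET-like domain, had 5 falls and 0 rises among 9 tested genes. The falls were 55.6% of these, where 27.8% of all genes fell and 27.9% rose. Prdm10 fell from 16.5 ± 1.25 to 7.83 ± 0.952 CPM, Prdm16 from 10.3 ± 1.09 to 5.06 ± 0.227 CPM, and Prdm1, a regulator of primordial germ cells, from 9.91 ± 0.939 to 5.62 ± 0.618 CPM. Prdm2 and Prdm15 fell by 0.74 and 0.66 on the log2 scale. Prdm4 (-0.15), Prdm9 (0.13) and Prdm11 (-0.40) were among those not called. Of the other SETD genes, Setd5 fell from 276 ± 15.2 to 164 ± 31.3 CPM (-0.75 ± 0.13, adjusted p = 0.000730, edgeR). Setd3, which methylates actin and not histones, Setd4 and Setd6 were not called, with changes from -0.21 to 0.11.

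Across the 70 tested members, the log2 fold change had a Pearson correlation of -0.395 and a Spearman correlation of -0.457 with log2 transcript length. With the length and GC trend removed it was -0.221, and over 14835 genes of known length it was -0.0529 as fitted. These are descriptions across genes measured in the same libraries.

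**Figure D5:**
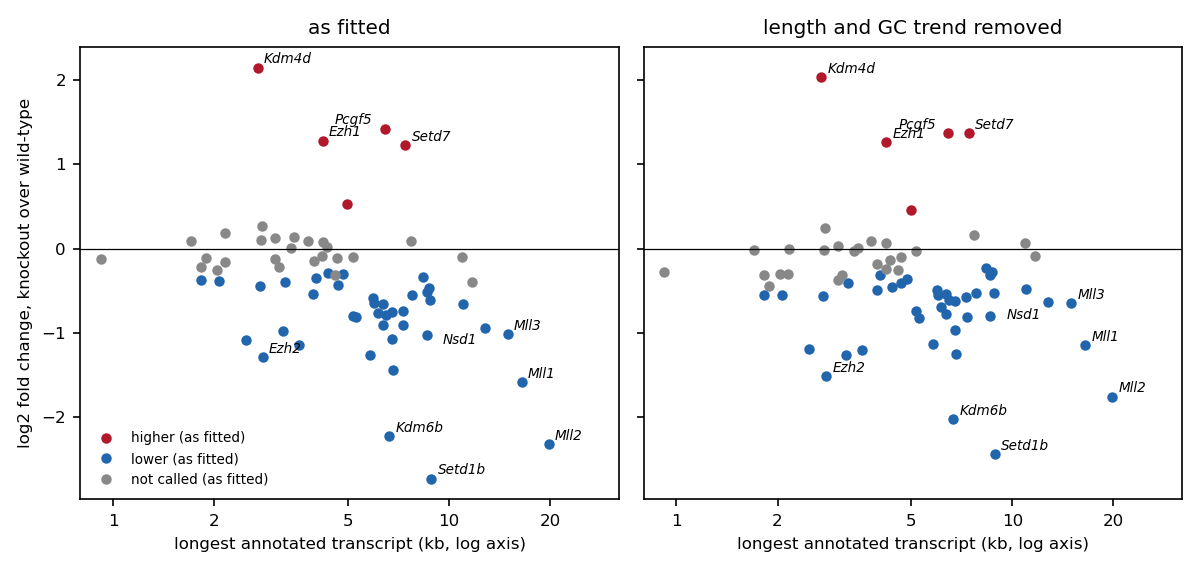
Log2 fold change (y axis) of the 70 tested members against their longest annotated transcript (kb, log x axis), as fitted (left) and with each library's length and GC trend removed (right). The long Mll genes move toward 0 on the right, where Setd1b stays at -2.44, Mll2 at -1.75 and Ezh1 at 1.26.

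Promoter windows of the members were rich in CpG. The median window held 20 CpG dinucleotides and 63% GC, against 6 and 52.4% over all promoters. A GC box was present in 65.9% of the members' windows and 32.7% of all windows, and an E2F motif in 6.10% and 1.86%. By call, lower members had 47 windows, higher members 7 windows from 5 genes, and members not called 25 windows. In that order, a GC box was present in 76.6%, 42.9% and 56% of the windows. A CCAAT box was present in 36.2%, 28.6% and 48%, and an E2F motif in 2.13%, 0% and 16%. Among lower members the E2F motif was in a window of Suz12 alone. Among members not called it was in windows of Cbx3, Suv420h2, Prdm4 and Suv39h1. Each gene named for the members not called became called in the fit corrected for length and GC content. The call of Suz12 ended with total counts. The higher E2F share of members not called therefore rests on few windows, depends on the setting and was not tested.

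Genes known as targets of these enzymes moved in both directions. Of 45 Polycomb-repressed developmental genes in the list, 18 passed the filter, 5 of them higher (27.8%, against 27.9% of all genes) and 9 lower (50%, against 27.8%). The neural regulators Pax6 and Sox1 fell from 6.55 ± 0.680 to 0.914 ± 0.103 CPM and from 16.2 ± 0.472 to 4.36 ± 1.05 CPM (SD, n = 3), and the cell-cycle inhibitor gene Cdkn2b rose from 0.501 ± 0.208 to 2.62 ± 0.312 CPM. Among 15 germline genes silenced through the PCGF6 complex and SETDB1, 13 rose (86.7%, against 27.9% of all genes) and 0 fell (against 27.8%). The meiotic cohesin gene Smc1b rose from 2.91 ± 0.491 to 26.8 ± 0.871 CPM and Dazl from 5.01 ± 0.166 to 31.0 ± 3.92 CPM. Of 11 genes of the 2-cell-like state, 7 passed the filter, 6 higher (85.7%, against 27.9% of all genes) and 1 lower (14.3%, against 27.8%). Zscan4a and Zscan4c reached 5.24 ± 0.190 and 5.74 ± 0.418 CPM in the knockout, but share reads with near-identical copies. In the Polycomb and 2-cell lists a gene near 0 in 1 group passes the filter only through the other, so those counts support no direction. All 15 measured germline genes passed the filter, and only Tex101 had a wild-type mean under 1 CPM (0.205 ± 0.146, SD, n = 3). Whether the germline list shifted as a set was not tested. In these bulk samples, a change in the share of cells in a given state and a change per cell cannot be told apart.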

How the data were processed

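The authors deposited whole-number counts per gene symbol for 6 libraries, not normalized. TopHat2 2.0.10, HTSeq 0.6.1, DESeq2 and build mm9 are named in the submitters' processing notes; for strand setting, annotation and filters, the sources used here give nothing. The authors' deposited comparison has, per the file headers, columns for log2 fold change and its error, p-value, adjusted p-value, Wald statistic (a score) and mean normalized signal.

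Counts were tested with edgeR 4.0.16 in R 4.3.3 (quasi-likelihood, two-sided, TMM, filterByExpr defaults) on the 6 libraries, and p-values were adjusted by Benjamini-Hochberg over 14988 genes with a threshold of 0.05. The SE is the log2 fold change divided by the square root of F. Members, role lists and partner lists were chosen with earlier results of these data known. Genes were named by rule: all PRC2 genes, up to 4 called members per role list and 2 per partner or target list with the largest change and at least 5 CPM, the 9 paralogue pairs and Sirt6; others were chosen after their values were seen. Ratios used a pseudocount of 0.5 counts.

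Length, GC content and chromosome came from GENCODE M21 (GRCm38) by symbol, for 21706 rows, or older symbol, for 1280. Every pair of libraries differed by more than sampling noise (lowest chi-square over degrees of freedom 3.73). On simulated counts (14406 genes tested) the edgeR step recovered 58% of 1.5-fold, 94% of 2-fold and 100% of 4-fold changes. That simulation changed 50 genes per fold size, each with at least 1 CPM in wild-type. It used the same dispersion for every gene and no trend between libraries, so recovery in the real libraries may differ. Alternatives were DESeq2 1.42.0 (size factors, test), total counts, other filters, limma-voom (limma 3.58.1), the replicate block, each replicate left out, removed length and GC trends and a log2 fold minimum of 1. Values of some members are not reported here. Genes sharing reads with copies or antisense genes are uncertain.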

Additional observations from a re-analysis of the deposited data

How the results depend on the processing

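Of the 45 members called, 34 kept their call and direction under every scaling, filter, test and left-out replicate tried, and 37 did so with each replicate left out. No member reversed in a called direction. With each replicate left out, 33 to 46 members were lower and 5 to 6 higher, the highest count of lower members being that without knockout replicate 1. With total counts 9 calls were lost (Eed, Suz12, Ehmt2, Setd2, Trim28, Kdm3a, Kdm4a, Kdm5b and Cbx1), and Pcgf6 and Suv420h2 were gained. With the length and GC trend removed 0 were lost and 12 gained, and without knockout replicate 1 0 were lost and 7 gained. With a log2 fold change of at least 1, 16 members passed (12 lower), and 3238 genes in all (1889 higher, 1349 lower), because the criterion is stricter. With DESeq2's test or size factors, limma-voom or no filter, 40 members were lower and 5 higher. When genes under 1 CPM on average were dropped, 38 were lower and 4 higher: Cbx8 and Kdm4d were no longer tested, and the call of Setd2 was lost. Same-numbered wild-type and knockout libraries deviated together with correlations of 0.208, -0.0250 and 0.201. These values do not settle whether the numbers pair the samples. With the replicate block, 41 members were lower and 6 higher, Kdm4b and Suv420h2 being added. Over all genes 9352 were called with the block and 8345 without it. Cbx8, Kdm4d and the low PRDM genes rest on few counts.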
